A study of Homo sapiens with 6 samples.

Results

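The 10 genes described here are GSK3A, GSK3B, AXIN1, AXIN2, APC, CTNNB1, LEF1, TCF7L2, DKK1 and LRP6, the core of the canonical Wnt pathway. They were taken by name, as all probe sets that the array's annotation pairs with exactly 1 gene symbol, where that symbol is a member. This gave 40 of the 44988 probe sets tested. RNA came from 786-O cells, a human kidney cancer line that lacks working VHL, carrying a lentivirus. The 3 shPLEKHO1 arrays held cells whose short hairpin RNA was directed at PLEKHO1, and the 3 shNC arrays held cells with a negative control hairpin. The treatment text of the labels names the PLEKHO1 hairpin for all 6 samples, while the genotype label calls the shNC samples controls. The labels give neither the hairpin's sequence nor the number of hairpins, and do not say whether the replicates of a group came from separate cultures. The p-values therefore cover array-to-array spread alone, which may be technical.

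Canonical Wnt signalling sets the amount of beta-catenin, the product of CTNNB1. Without a ligand, the scaffolds AXIN1, AXIN2 and APC hold beta-catenin beside the kinases GSK3A and GSK3B, which mark it for ubiquitination and breakdown. A Wnt ligand bound to Frizzled and LRP6 stops that complex, and beta-catenin then joins the DNA-binding proteins LEF1 and TCF7L2 and switches on target genes, AXIN2 and DKK1 among them. AXIN2 and DKK1 dampen the pathway in turn, DKK1 by binding LRP6. Most of this control acts on the protein and its phosphorylation, which an RNA array does not measure.

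With shPLEKHO1, messenger RNA of the effector CTNNB1 was lower on all 8 of its probe sets, by 1.30-fold to 2.61-fold, and TCF7L2 was 2.05-fold lower on its brightest probe set. GSK3A was higher on all 3 of its probe sets, by up to 1.39-fold. GSK3B split: its brighter probe set was 2.17-fold lower and its other probe set was 1.46-fold higher. The feedback gene AXIN2 was 1.72-fold lower on the brightest of 3 probe sets, while its other 2 did not pass. The co-receptor LRP6 was 1.33-fold lower on its brightest probe set. A dim LRP6 probe set rose, a call lost when any of 4 single arrays was left out, while both GSK3B calls held without each of the 6. No probe set of AXIN1, APC or DKK1 changed, but the DKK1 probe set stood near background, where a fall could hardly be seen. Each log2 difference takes shNC from shPLEKHO1, after adding 1 to the intensity, and is given ± SE with n = 3 arrays per group. "Rose", "fell" and "changed" mean a Benjamini-Hochberg adjusted p under 0.05 over all 44988 probe sets in limma, a linear model that pools the spread over probe sets. Single-array values are deposited intensities on a linear scale.

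In numbers, 18 of the 40 probe sets fell, 5 rose and 17 did not pass. Of all probe sets tested, 15.7% fell and 17.3% rose, 33.0% in all. The median log2 difference of the 40 was -0.21, against 0.01 over all probe sets. The values of the groups did not overlap on 26 of the 40 probe sets, against 43.0% of all. At least 1 probe set changed for 7 of the 10 genes, against 41.9% of all 18132 genes, which differ in their number of probe sets. A change of 1.5-fold or more was reached by 7 of the 40 and by 3470 of the 44988. Probe sets of a gene share its RNA and can share probes, so the 40 are not independent. For a single probe set the exact two-sided permutation test of 3 against 3 arrays cannot go below p = 0.1, which it reached for GSK3B on both probe sets and for the brightest AXIN2 probe set.

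**Figure D1:**
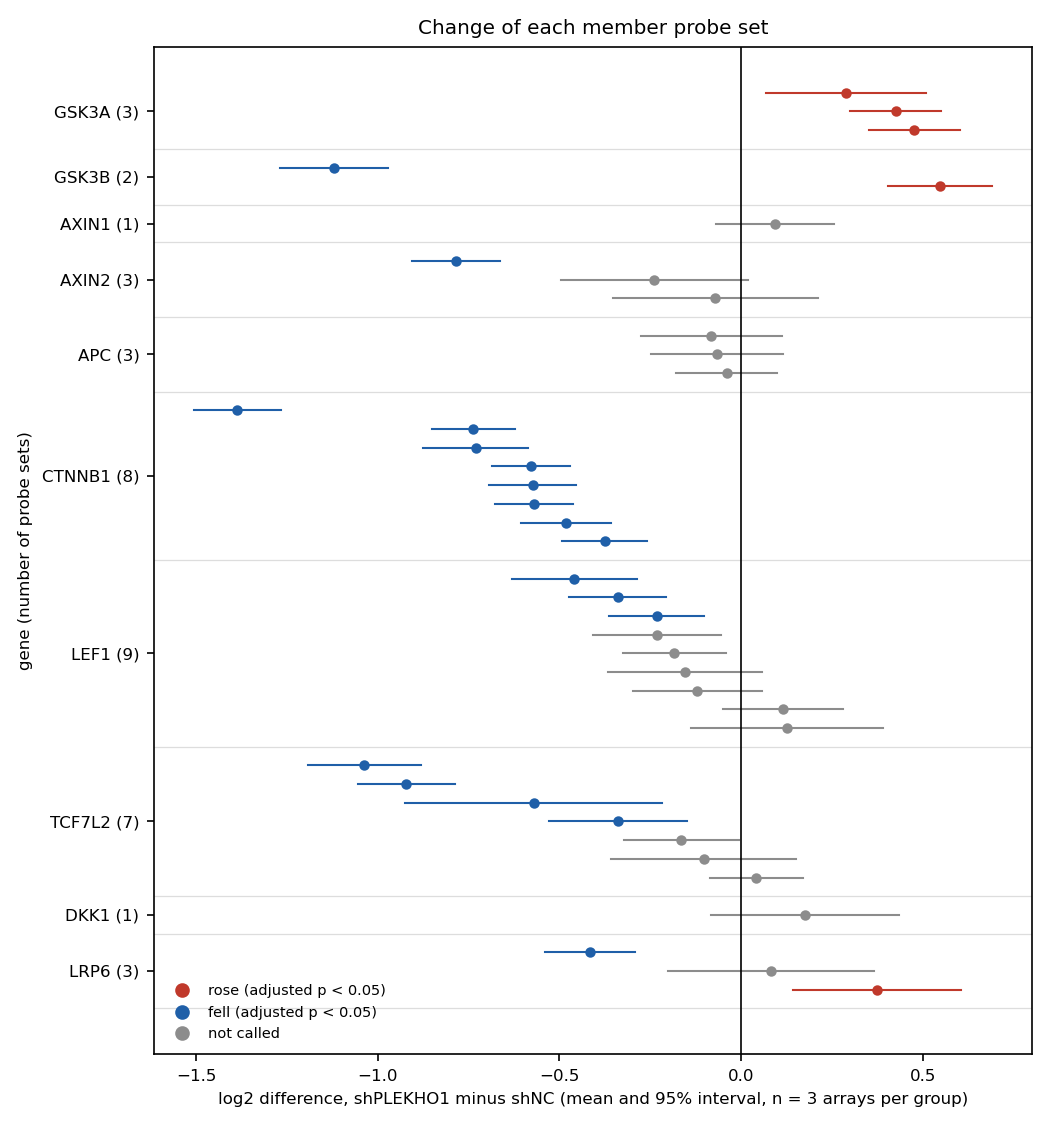
Log2 difference (x axis, shPLEKHO1 minus shNC) of each of the 40 probe sets, grouped by gene (y axis, with the number of probe sets); points are fitted means and bars 95% intervals, n = 3 arrays per group. All 8 CTNNB1 points lie below 0 and all 3 GSK3A points above it, while GSK3B has a point on each side.

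Facts of the whole series touch these values in few places. Median intensity was 55.7 to 56.7 on the shPLEKHO1 arrays and 56.0 to 57.1 on the shNC arrays. Log2 values correlated at 0.998 within groups and at 0.988 to 0.989 between them, across probe sets that are not independent. PLEKHO1 itself, on its single probe set, read 110.3, 115.7 and 97.4 with shPLEKHO1 and 134.7, 142.6 and 126.1 with shNC, a fall of 0.32 ± 0.08 on the log2 scale (limma adjusted p = 0.0124, exact permutation p = 0.1). Markers were read from their brightest probe sets, by which 33.2% of all genes changed. Of 10 markers listed for renal cancer cells 8 were measured, and 3 fell, 3 rose and 2 did not pass. CDH6, a kidney cadherin, moved most, at 306 with shPLEKHO1 and 597 with shNC, and the renal transcription factors PAX8 (shPLEKHO1 354, shNC 424) and PAX2 (shPLEKHO1 108, shNC 136) fell as well. The hypoxia factor EPAS1 (shPLEKHO1 1756, shNC 1207) and the keratins KRT18 (shPLEKHO1 2173, shNC 1507) and KRT8 (shPLEKHO1 2564, shNC 2074) rose, while vimentin (VIM, shPLEKHO1 15448, shNC 14741) and LRP2 (shPLEKHO1 29.4, shNC 32.6) did not pass. Of 5 markers listed for other cell types 1 changed, EPCAM, at 51.7 with shPLEKHO1 and 97.2 with shNC. EPCAM marks epithelia, so it does not set other cells apart from a kidney epithelial line. The 5 markers summed to 137 to 155 on the shPLEKHO1 arrays and 174 to 197 on the shNC arrays. The leukocyte marker PTPRC averaged 6.82 with shPLEKHO1 and 6.39 with shNC. Without EPCAM the other 4 summed to 84.8 to 102 on the shPLEKHO1 arrays and 82.4 to 94.4 on the shNC arrays, which overlap. The part of these differences in the results was not tested, and in bulk RNA fewer expressing cells and less RNA per cell cannot be told apart.

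Promoter windows of 4 members are shown, from RefSeq on GRCh38.p14, 250 bases before to 50 after the gene's start, 5' to 3'. GSK3A and GSK3B are shown because these sister kinases are set side by side below, GSK3A with all of its probe sets higher and GSK3B with a probe set on each side, CTNNB1 because all of its probe sets fell, and DKK1 because its window holds the motif that was searched. Capitals mark CTTTGAA or CTTTGAT or CTTTGTA or CTTTGTT, the core that LEF1 and TCF7L2 bind, searched on both strands.
GSK3A, chr19:42242553-42242852, - strand: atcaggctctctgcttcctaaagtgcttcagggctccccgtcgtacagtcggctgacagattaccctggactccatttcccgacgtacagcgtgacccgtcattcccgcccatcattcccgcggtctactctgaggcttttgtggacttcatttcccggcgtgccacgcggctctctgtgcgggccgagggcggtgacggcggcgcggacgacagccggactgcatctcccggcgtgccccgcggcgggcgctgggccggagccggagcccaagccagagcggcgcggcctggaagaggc
GSK3B, chr3:120094398-120094697, - strand: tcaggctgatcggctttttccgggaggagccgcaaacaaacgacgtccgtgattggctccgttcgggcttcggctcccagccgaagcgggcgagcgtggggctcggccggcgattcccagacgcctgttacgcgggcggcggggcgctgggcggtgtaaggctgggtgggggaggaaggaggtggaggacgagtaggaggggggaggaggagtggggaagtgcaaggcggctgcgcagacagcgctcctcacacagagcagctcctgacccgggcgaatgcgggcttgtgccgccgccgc
CTNNB1, chr3:41199255-41199554, + strand: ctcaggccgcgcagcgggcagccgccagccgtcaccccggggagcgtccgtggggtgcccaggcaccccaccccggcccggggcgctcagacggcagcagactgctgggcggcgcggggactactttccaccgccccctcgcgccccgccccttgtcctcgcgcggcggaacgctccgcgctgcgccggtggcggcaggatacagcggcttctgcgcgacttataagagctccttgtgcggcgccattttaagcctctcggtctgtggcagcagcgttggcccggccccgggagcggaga
DKK1, chr10:52314031-52314330, + strand: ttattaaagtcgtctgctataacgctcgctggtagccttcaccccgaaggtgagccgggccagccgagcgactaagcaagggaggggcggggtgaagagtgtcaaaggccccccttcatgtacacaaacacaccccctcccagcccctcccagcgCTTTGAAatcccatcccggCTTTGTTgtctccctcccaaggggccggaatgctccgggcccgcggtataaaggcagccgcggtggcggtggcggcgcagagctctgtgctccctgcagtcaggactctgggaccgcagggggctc

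The DKK1 window held 2 matches, centred 92 and 73 bases before the start. The windows of GSK3A, GSK3B and CTNNB1 held 0. There were 11 windows for 8 members, with 2 starts for APC and 3 for TCF7L2. AXIN2 and LRP6 had no window and were not searched. Of the 11 windows only DKK1's and 1 of those of TCF7L2 had a match, or 18.2%. Over all 35116 windows of the same length 13.8% had one. A match is a string of letters and not a measured binding site. DKK1, whose window has 2, was not called, but its probe set stood near background, where a fall could hardly be seen.

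Of the receptor side, LRP6 codes for the co-receptor that takes up the Wnt signal together with Frizzled. Its brightest probe set (11719257_s_at) read 278, 307 and 289 with shPLEKHO1 and 385, 395 and 391.5 with shNC. Every shPLEKHO1 array lay below every shNC array, and the probe set fell 1.33-fold (-0.42 ± 0.05, limma adjusted p = 0.000516). A much dimmer probe set (11751922_a_at) read 30.1, 34.6 and 31.5 with shPLEKHO1 and 26.9, 21.7 and 24.6 with shNC. It rose by 0.38 ± 0.10 (limma adjusted p = 0.0208), and by 0.25 with a pseudocount of 16. That rise did not pass without shPLEKHO1 replicate 2 (0.0704) or 3 (0.0540) or without shNC replicate 2 (0.0589) or 3 (0.0529), over a range of 0.0529 to 0.0704 in these fits. The last LRP6 probe set (11719256_a_at) averaged 32.2 ± 3.72 with shPLEKHO1 and 30.2 ± 4.55 with shNC (SD, n = 3), with overlapping arrays.

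DKK1, the secreted inhibitor that binds LRP6, was measured by 1 probe set (11718141_at). It read 13.9, 13.8 and 18.3 with shPLEKHO1 and 13.7, 12.4 and 13.8 with shNC. The background probe set of 16 G or C bases, whose sequence matches no human gene, averaged 13.9 with shPLEKHO1 and 13.3 with shNC, so DKK1 stood near that background on 5 of 6 arrays. Background on such arrays depends on base composition, and the composition of the DKK1 probes was not analysed here. The log2 difference was 0.18 with a 95% interval from -0.08 to 0.44, which did not pass (limma adjusted p = 0.296).

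Of the kinases, GSK3A codes for the alpha form of glycogen synthase kinase 3. Its brightest probe set (11724373_a_at) read 761, 788 and 741 with shPLEKHO1 and 537, 537 and 564 with shNC. The groups were well apart, and it rose 1.39-fold (0.48 ± 0.05, limma adjusted p = 0.000251). The second (11756129_a_at) averaged 582 ± 7.86 with shPLEKHO1 and 434 ± 17.7 with shNC (SD, n = 3), and rose 1.34-fold. The third (11756130_x_at), with 275, 286 and 244 in shPLEKHO1 and 199, 245 and 223 in shNC, overlapped between groups and passed narrowly (0.29 ± 0.10, limma adjusted p = 0.0498). It did not pass without shPLEKHO1 replicate 1 (0.130) or 2 (0.136) or without shNC replicate 1 (0.129) or 3 (0.106). The changes of the 3 probe sets did not differ from each other past the threshold (limma adjusted p = 0.676 and 0.228 against the brightest).

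GSK3B codes for the beta form, the kinase best known for phosphorylating beta-catenin. Its brighter probe set (11754361_s_at) read 149, 171 and 149.8 with shPLEKHO1 and 339.7, 353 and 333 with shNC. All 3 shPLEKHO1 values lay far below the shNC values. The fall was 2.17-fold, a change of -54.0% with a 95% interval from -58.5% to -49.0% (log2 difference -1.12 ± 0.06, limma adjusted p = 8.34e-06). The other probe set (11744456_s_at) read 175, 204 and 186 with shPLEKHO1 and 127, 125 and 136 with shNC. Here every shPLEKHO1 array lay above every shNC array, a rise of 46.2% with a 95% interval from 32.4% to 61.4% (0.55 ± 0.06, limma adjusted p = 0.000242).

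Whether the GSK3B probe sets differed was tested directly, on the difference between them on each array, in a limma fit over all 26856 such pairs of probe sets within genes. Brighter minus other gave -1.67 ± 0.07 with a 95% interval from -1.84 to -1.50 (limma adjusted p = 2.38e-05). Of all pairs 15.2% differed at this threshold, and of 11734 genes with several probe sets 461, or 3.93%, had some that rose and some that fell. The direction for GSK3B messenger RNA therefore depends on the probe set read. The position of either probe set in the transcripts was not analysed here. In the array maker's naming both carry the ending _s_at, for probes that match several transcripts, at times of different genes.

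**Figure D2:**
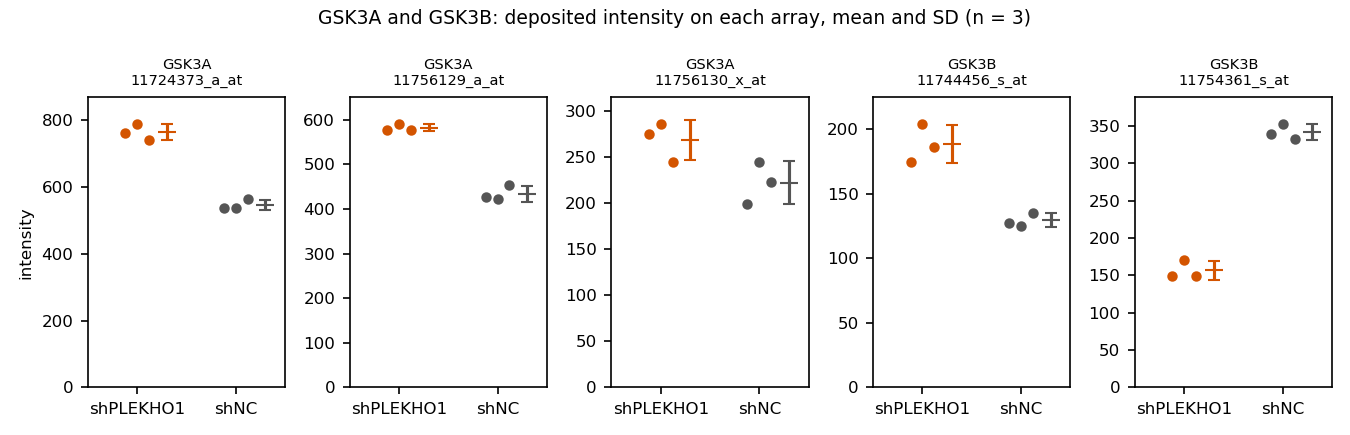
Deposited intensity (y axis, linear, from 0) of the 3 GSK3A and 2 GSK3B probe sets on each array, shPLEKHO1 left and shNC right; points are arrays and bars mean ± SD, n = 3. The last 2 panels show GSK3B at 148.8 to 171.3 with shPLEKHO1 and 332.7 to 353.2 with shNC on one probe set, and at 174.9 to 204.3 with shPLEKHO1 and 125.3 to 135.5 with shNC on the other.

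Of the scaffolds, AXIN2 is both a part of the destruction complex and a target gene of beta-catenin. Its brightest probe set (11718452_at) read 35.4, 32.2 and 34.4 with shPLEKHO1 and 61.0, 58.8 and 58.1 with shNC. The groups were tight and well apart, a change of -42.0% with a 95% interval from -46.7% to -36.9% (log2 difference -0.79 ± 0.05, limma adjusted p = 1.64e-05). Over the alternative ways of processing the log2 difference ran from -0.81 to -0.59 and stayed called, so the size depends on the processing. The next (11718453_a_at) read 23.5, 18.5 and 20.9 with shPLEKHO1 and 21.3, 24.1 and 29.4 with shNC, overlapped, and did not pass (-0.24 ± 0.11, limma adjusted p = 0.150). The dimmest (11718451_a_at) averaged 10.9 ± 1.67 with shPLEKHO1 and 11.4 ± 1.44 with shNC (SD, n = 3), under the background probe set of 16 G or C bases. The brightest probe set fell further than each of the others (limma adjusted p = 0.0245 and 0.00752 for the differences of -0.55 and -0.71).

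AXIN1, the scaffold that most cells express at a steady level, was measured by 1 probe set (11754511_a_at). It read 141, 145 and 134 with shPLEKHO1 and 121, 141 and 133 with shNC. The arrays overlapped, and the difference was 0.09 with a 95% interval from -0.07 to 0.26 (limma adjusted p = 0.379). APC, the tumour suppressor that binds beta-catenin and AXIN, had 3 probe sets, all dim and all overlapping between groups. Its brightest (11757692_s_at) read 42.2, 35.5 and 39.4 with shPLEKHO1 and 38.3, 39.3 and 46.9 with shNC, a difference of -0.08 with a 95% interval from -0.28 to 0.11. The other APC probe sets stood at -0.07 and -0.04. Of the 5 probe sets of AXIN1, APC and DKK1, 0 had an unadjusted p under 0.05.

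**Figure D3:**
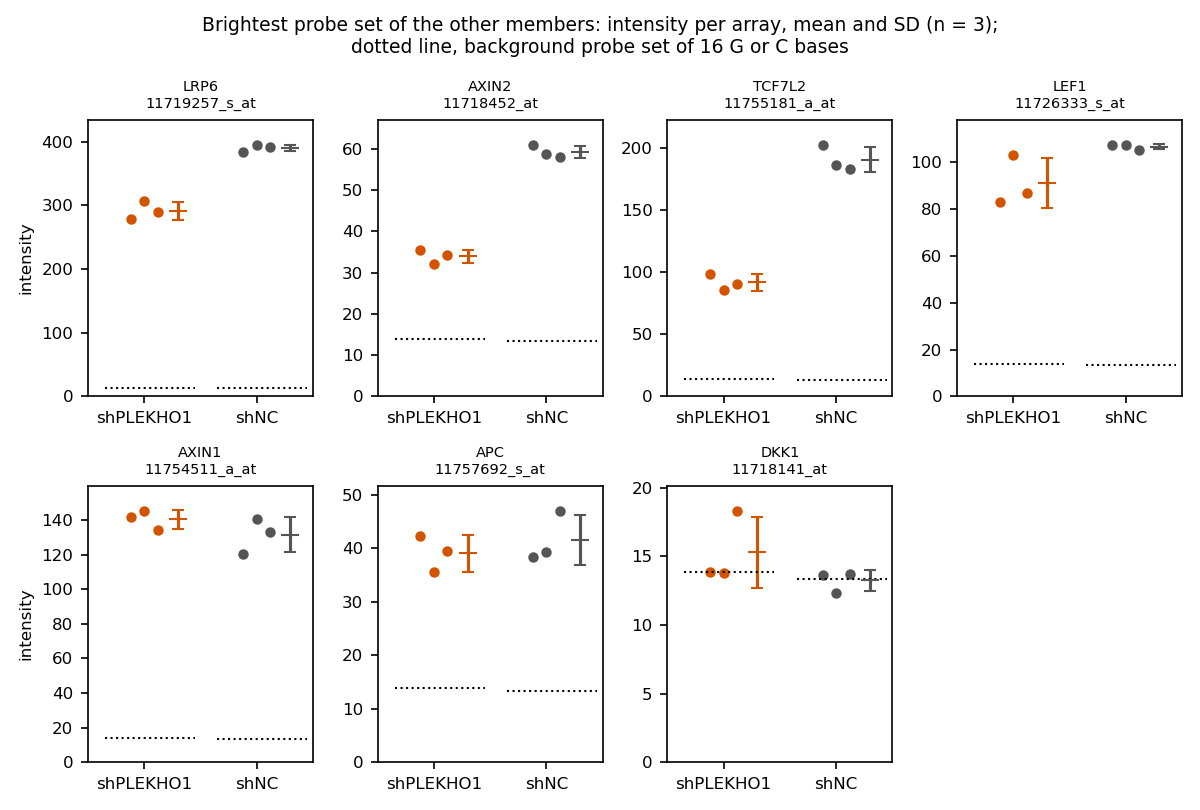
Deposited intensity (y axis, linear, from 0) on each array for the brightest probe set of LRP6, AXIN2, TCF7L2, LEF1, AXIN1, APC and DKK1, shPLEKHO1 left and shNC right; points are arrays, bars mean ± SD (n = 3), and the dotted line is the background probe set of 16 G or C bases. AXIN2, TCF7L2 and LRP6 show gaps between the groups, AXIN1 and APC overlap, and DKK1 lies at the dotted line on all but 1 array.

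CTNNB1 codes for beta-catenin, which carries the Wnt signal to the nucleus and also ties cadherins to the cytoskeleton. It had 8 probe sets, all bright, all with separate groups and all lower with shPLEKHO1. The brightest (11749021_s_at) read 2003, 2099 and 1936 with shPLEKHO1 and 2644, 2592 and 2617 with shNC. It had the smallest fall of the 8, 1.30-fold (log2 difference -0.38 ± 0.05, limma adjusted p = 0.000622). The next in brightness (11722167_s_at) read 1828, 1775 and 1932 with shPLEKHO1 and 2610, 2563 and 2567 with shNC, a fall of 0.48 ± 0.05 on the log2 scale.

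The largest fall was on 11747387_a_at, which read 472, 486 and 495 with shPLEKHO1 and 1348, 1267 and 1203 with shNC. No array of a group came near the other group, and the fall was 2.61-fold (log2 difference -1.39 ± 0.05, limma adjusted p = 1.48e-06). Between these extremes, 11747388_x_at averaged 839 ± 36.4 with shPLEKHO1 and 1391 ± 67.2 with shNC (SD, n = 3), and 11749022_x_at averaged 359 ± 7.85 and 597 ± 31.2. They fell by 0.74 and 0.73 on the log2 scale. The other CTNNB1 probe sets, 11748951_a_at, 11748952_x_at and 11750680_x_at, lay close together, at -0.57, -0.58 and -0.57. The median over the 8 was -0.58.

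CTNNB1 probe sets agreed in direction but not in size. Set against the brightest, 11747387_a_at fell further by 1.01 ± 0.07 (limma adjusted p = 0.000133), 11747388_x_at by 0.36 ± 0.06 (0.0063) and 11749022_x_at by 0.35 ± 0.08 (0.0176). The remaining 4 did not differ from it past the threshold, with differences of 0.11 to 0.20. Probe sets ending in _x_at can hold probes that match other sequences. The 4 CTNNB1 probe sets without that ending fell by 0.38, 0.48, 0.57 and 1.39. Those at 0.38 and 0.48 end in _s_at, which can also stand for probes that match transcripts of different genes.

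**Figure D4:**
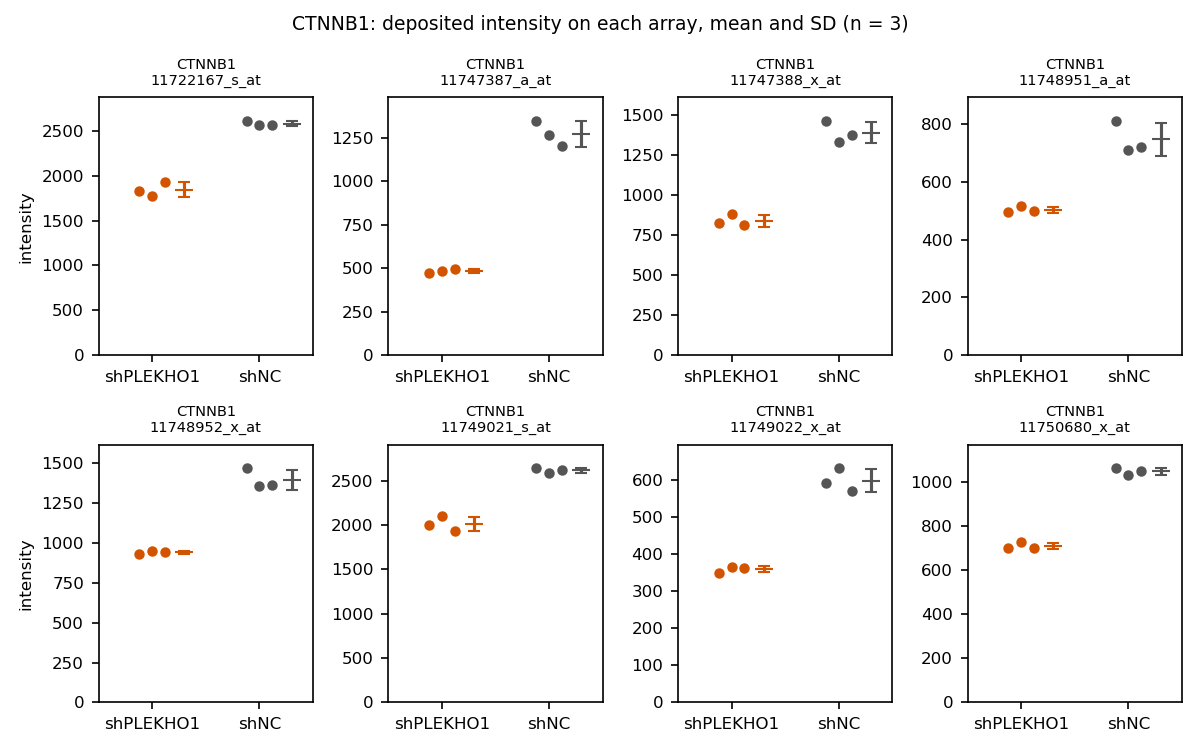
Deposited intensity (y axis, linear, from 0) of the 8 CTNNB1 probe sets on each array, shPLEKHO1 left and shNC right; points are arrays and bars mean ± SD, n = 3. In each panel the shPLEKHO1 arrays lie below the shNC arrays, with the widest gap for 11747387_a_at, at 485 ± 11.5 with shPLEKHO1 and 1272 ± 72.8 with shNC.

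TCF7L2 codes for a DNA-binding partner of beta-catenin that many epithelia use. Its brightest probe set (11755181_a_at) read 98.9, 85.6 and 90.9 with shPLEKHO1 and 203, 186 and 183 with shNC. It fell 2.05-fold, a change of -51.3% with a 95% interval from -56.2% to -45.7% (log2 difference -1.04 ± 0.07, limma adjusted p = 1.40e-05). The next (11746314_s_at) read 46.8, 47.0 and 42.9 with shPLEKHO1 and 83.8, 90.5 and 87.6 with shNC, a fall of 0.92 ± 0.06 that did not differ from the brightest one's past the threshold (limma adjusted p = 0.512). A dimmer one (11746313_a_at) fell by 0.34 ± 0.08 (-0.22 with a pseudocount of 16), less than the brightest did (difference -0.70 ± 0.11, limma adjusted p = 0.00356).

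The fourth TCF7L2 probe set that fell (11746315_x_at) was spread widely, at 57.7, 40.4 and 43.1 with shPLEKHO1 and 58.6, 83.9 and 69.3 with shNC. The groups only just failed to touch (-0.57 ± 0.15, limma adjusted p = 0.0215). That call was lost without shPLEKHO1 replicate 2 (0.0764) or 3 (0.0712) and without shNC replicate 2 (0.0630) or 3 (0.0522). The last 3 TCF7L2 probe sets averaged 7.21 to 9.11 with shPLEKHO1 and 6.92 to 10.2 with shNC, under the background probe set of 16 G or C bases, and did not pass.

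LEF1 codes for the sister factor of TCF7L2, best known from lymphocytes, and is itself a Wnt target gene in several tissues. It had 9 probe sets, of which 3 fell and none rose. The brightest (11726333_s_at) read 83.3, 103 and 87.0 with shPLEKHO1 and 107, 107 and 106 with shNC. All shPLEKHO1 arrays were lower, but replicate 2 came close, and the difference of -0.23 ± 0.08 lay just outside the threshold (limma adjusted p = 0.0506). Without shPLEKHO1 replicate 2 it was -0.31 and passed (0.00569).

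The LEF1 probe sets that fell were dim. One (11736568_x_at) read 21.0, 20.3 and 19.9 with shPLEKHO1 and 31.2, 26.7 and 27.0 with shNC (-0.46 ± 0.08, limma adjusted p = 0.00183). Another (11747931_a_at) averaged 14.3 ± 0.53 with shPLEKHO1 and 18.3 ± 0.90 with shNC (SD, n = 3), and 11746636_a_at averaged 16.6 ± 0.38 and 19.5 ± 1.07. They fell by 0.34 and 0.23 on the log2 scale, and the call of 11746636_a_at was lost without shNC replicate 3 (0.0554). With a pseudocount of 16 in place of 1 the falls were smaller, at -0.29 for 11736568_x_at, -0.18 for 11747931_a_at and -0.13 for 11746636_a_at, and stayed called. The background probe set of 16 G or C bases averaged 13.9 with shPLEKHO1 and 13.3 with shNC. Of the LEF1 probe sets that fell, 11747931_a_at and 11746636_a_at stood little above it. The averages of 11736568_x_at, 20.4 with shPLEKHO1 and 28.3 with shNC, stood further above. The LEF1 probe sets not called ranged from -0.23 to 0.13.

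Of the 6 member probe sets at or under the background probe set of 16 G or C bases in both groups, 0 changed, and 1 had an unadjusted p under 0.05. Over all probe sets this dim 347 of 8665 were called, so 0 of 6 is near that share. Of the 34 brighter ones, 18 fell and 5 rose, or 67.6% called. Over all probe sets brighter than that background 39.9% were called and 19.0% fell. A probe set counted as brighter when its mean passed that background in at least 1 group. Some, DKK1 among them, were therefore kept through their higher group alone, which favours changed probe sets. The shares among the brighter ones are thus description only. The comparison with background used a threshold picked after the values were seen.

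Over the 8 genes with several probe sets, 30 pairs of the brightest and another probe set could be tested, and 13 differed, against 15.2% of all pairs. These were the only GSK3B pair, both pairs of AXIN2 and of LRP6, 4 of 6 of TCF7L2, 3 of 7 of CTNNB1 and 1 of 8 of LEF1. No pair of GSK3A or APC differed past the threshold.

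The wider pathway was read from lists of 112 other genes, chosen with earlier results of these data known, of which 106 were measured. A gene was read from its brightest probe set. Of the 106, 24 fell and 19 rose, where over all 18132 genes read this way 15.6% fell and 17.6% rose, 33.2% in all. Their median log2 difference was -0.01, against 0.01 over all genes. By the same reading 5 of the 10 core genes fell and 1 rose.

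Of 19 genes of Wnt ligands and their secretion, 2 rose, 2 fell and 15 did not pass (median 0.00). WNT5A, a ligand best known for signalling without beta-catenin, read 511, 535 and 524 with shPLEKHO1 and 321, 318 and 339 with shNC, and rose 1.60-fold (0.68 ± 0.05). Its close relative WNT5B rose by 0.23 ± 0.06, a call lost without shPLEKHO1 replicate 3 or without shNC replicate 2 or 3 (limma adjusted p = 0.0532, 0.0536 and 0.0542). WNT7B, a ligand of kidney epithelium that acts through beta-catenin, read 252, 262 and 241 with shPLEKHO1 and 430.2, 422 and 442 with shNC, and fell 1.70-fold on its brightest probe set. All 4 of its probe sets fell. WNT2B fell by 0.40 ± 0.08.

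Among 17 receptors and co-receptors other than LRP6, 7 fell, 5 rose and 5 did not pass (median -0.17). FZD8 rose 1.54-fold, with 239.6, 252 and 254 with shPLEKHO1 against 158, 159 and 169 with shNC. FZD1 fell 1.61-fold, FZD2 1.41-fold and RYK, a Wnt-binding receptor with an inactive kinase domain, 1.35-fold. For FZD1 1 of 2 probe sets fell. LRP5, the closest relative of LRP6, averaged 67.1 with shPLEKHO1 and 92.1 with shNC and fell by 0.45 ± 0.08. LRP5 was picked for its kinship with LRP6 after its values were seen.

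Of 20 secreted and membrane regulators 3 fell, 1 rose and 16 did not pass (median -0.02). SFRP4, a secreted Wnt-binding protein, read 11.2, 13.0 and 13.3 with shPLEKHO1 and 27.8, 31.0 and 30.4 with shNC, and fell on its brightest probe set. The shPLEKHO1 mean of 12.5 lay under the background probe set of 16 G or C bases, so the size is not a measured fold, and the log2 difference of -1.20 became -0.69 with a pseudocount of 16. It had 3 probe sets, of which 1 fell. The Dickkopf receptors KREMEN1 and KREMEN2 fell by 0.22 and 0.33, and DKK3 rose by 0.16. For KREMEN1 2 of 3 probe sets fell, for KREMEN2 1 of 2 fell, and for DKK3 1 of 6 rose. The small changes on the brightest probe sets did not hold without single arrays. The DKK3 call was lost without any 1 of the 6 arrays (limma adjusted p from 0.0621 to 0.106). KREMEN1 lost it without any but shPLEKHO1 replicate 1 (0.0727 to 0.105), and KREMEN2 without shPLEKHO1 replicate 3 (0.0617) or shNC replicate 2 (0.0735) or 3 (0.0643).

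Of 19 Dishevelled and destruction complex genes 7 rose, 3 fell and 9 did not pass (median 0.08). GSKIP, a protein that binds and inhibits GSK3, read 316, 361 and 334 with shPLEKHO1 and 235, 221 and 225 with shNC, and rose 1.49-fold (0.58 ± 0.05). TNKS2, a tankyrase that marks AXIN for breakdown, rose 1.32-fold, with all 4 of its probe sets up. Its relative TNKS fell 1.59-fold by its brightest probe set, while 2 of its 4 probe sets rose. RNF146, the ubiquitin ligase that follows the tankyrases, fell 1.36-fold.

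Of 15 nuclear partners 4 fell, 2 rose and 9 did not pass (median -0.02). The corepressor CTBP1 fell 1.28-fold, and each of its 4 probe sets was called lower. BCL9L, a coactivator that works with beta-catenin, fell by 0.59 ± 0.09 on the log2 scale, and TLE1, a Groucho corepressor, by 0.42 ± 0.07. SOX9, a transcription factor that can promote the breakdown of beta-catenin, rose 1.33-fold, with all 3 of its probe sets up.

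Of 15 genes known as Wnt targets 5 fell, 2 rose and 8 did not pass (median -0.04). Cyclin D1 (CCND1) read 992, 1034 and 969.8 with shPLEKHO1 and 2733, 2608 and 2633 with shNC, and fell 2.66-fold. The matrix protease MMP7 read 84.0, 102.5 and 93.8 with shPLEKHO1 and 227, 203 and 211 with shNC, and fell 2.27-fold. The Notch ligand JAG1 fell 1.60-fold and TNFRSF19 1.51-fold. The fifth that fell was BMP4, a secreted growth factor, by 0.34 ± 0.08. The growth regulator MYC rose 1.16-fold, at 1109 with shPLEKHO1 and 941 with shNC on its only probe set. The adhesion receptor CD44 rose 1.18-fold on its brightest probe set, and of its 10 probe sets 8 rose and 2 fell. BMP4, MYC and CD44 were named after their values were seen. The 8 that did not pass were NKD1, RNF43, ZNRF3, NOTUM, LGR5, SP5, ASCL2 and PPARD, with log2 differences from -0.16 to 0.12. AXIN2 and DKK1, also targets, are described above and are not counted here.

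**Figure D5:**
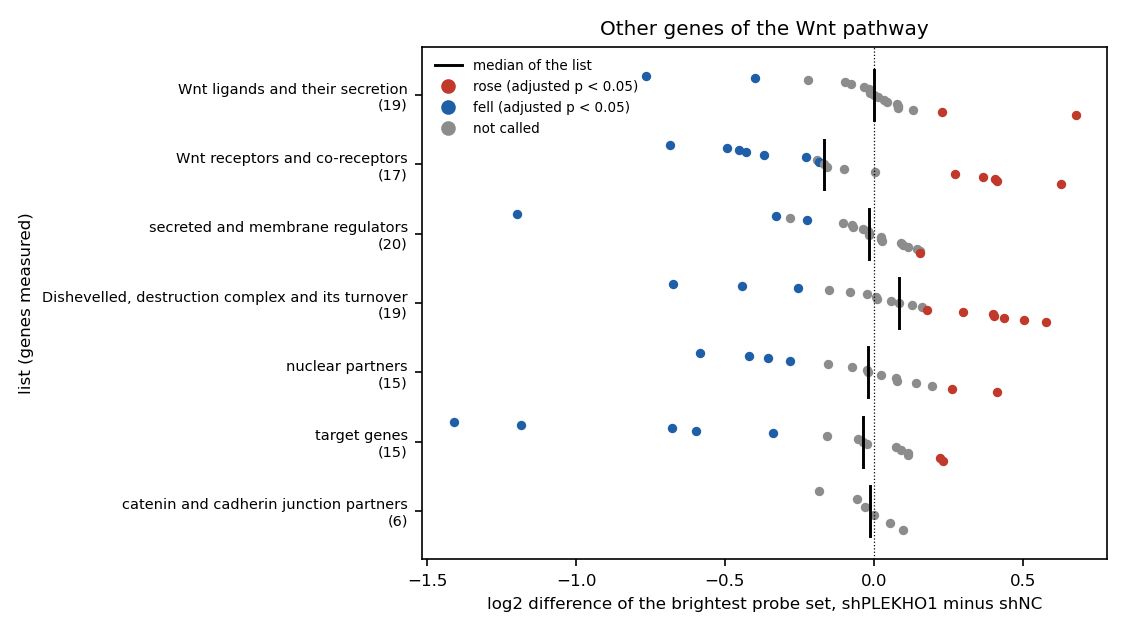
Log2 difference (x axis, shPLEKHO1 minus shNC, brightest probe set) of the other Wnt pathway genes, 1 point per gene, by list (y axis, with the number measured); vertical bars are list medians. Points lie on both sides of 0 in every list, and the medians lie between -0.17 and 0.08.

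Probe sets of other genes with the most similar pattern over the 6 arrays were found by the root mean square difference in log2 value from the shNC mean. For the brighter GSK3B probe set these were SMPD1 (0.03), DCDC2 (0.04) and MAGT1 (0.05), with log2 differences of -1.13, -1.13 and -1.09. For the brightest AXIN2 probe set they were ASNS (0.02), FBXO28 (0.02) and SCARB2 (0.03), with -0.79, -0.78 and -0.80. With 2 groups this measure finds genes with a change of like size and says nothing more.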

How the data were processed

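RNA of 6 samples was measured on single-colour Affymetrix arrays, after biotin labelling, per the labels' protocols. The deposited values are intensity values, 1 per probe set and array, made by the authors with Expression Console, which the submitters' processing notes name. The sources used here do not give its version or algorithm, or whether arrays were normalized to each other. The number of arrays limits the precision.

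Of 49395 probe sets, 102 controls, 1832 with several gene symbols and 2473 with none were left out. The 44988 others were named through Entrez identifiers from RefSeq on GRCh38.p14 (44961 matched). Values were taken as log2(intensity + 1), where the added 1 understates changes of dim probe sets. They were then quantile normalized and fitted with lmFit and eBayes (limma 3.58.1, R 4.3.3, with 4 residual and 4.06 prior degrees of freedom). The steps were tested on simulated data. The members, lists and tests were chosen with earlier results of these data known.

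Named genes are all members, up to 4 called genes with the smallest p per list, up to 2 well known ones where fewer than 2 were called, and the 3 probe sets most like GSK3B and AXIN2. Alternatives covered normalization, pseudocount, dim probe sets, probe sets fitted, variance model, array weights, replicate block and each array left out.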

Additional observations from a re-analysis of the deposited data

How the results depend on the processing

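Of the 40 member probe sets, 29 kept direction and side of the threshold under every alternative in which they were fitted. All 8 CTNNB1 probe sets, both of GSK3B, and the brightest of AXIN2, TCF7L2 and LRP6 were among them. GSK3B brighter minus other ran from -1.72 to -1.55 over the alternatives. The number of members called was 16 to 24 of those fitted, with 16 of 30 when probe sets ending in _x_at were left out, and 19 to 22 with 1 array left out. Leaving out 1 array gave 38 to 39 list genes, 10 to 13 differing pairs and 12572 to 13459 probe sets called in all, and PLEKHO1 at -0.37 to -0.25. Signs turned only for probe sets that passed under no alternative. APC 11731561_a_at ran from -0.139 without shNC replicate 3 to 0.00637 without shNC replicate 1, and APC 11757692_s_at from -0.126 without shNC replicate 2 to 0.00036 without shNC replicate 3. AXIN2 11718451_a_at ran from -0.168 without shPLEKHO1 replicate 3 to 0.0532 without shPLEKHO1 replicate 1, and TCF7L2 11751102_x_at from -0.221 without shPLEKHO1 replicate 2 to 0.0199 without shPLEKHO1 replicate 3. LRP6 11719256_a_at was -0.0315 without shNC replicate 1, -0.0106 without shPLEKHO1 replicate 2 and 0.187 without shPLEKHO1 replicate 1. The cause was not tested. With the replicate number as a block, 21 members were called, 3 up and 18 down, while 39 list genes and 11 pairs passed, and all probe sets called numbered 12937. The PLEKHO1 probe set stood at -0.32 (limma adjusted p = 0.00849). GSK3A 11756130_x_at (0.0539), LRP6 11751922_a_at (0.0518), KREMEN1 and DKK3 lost their call. Arrays of the same number did not deviate together (correlations of -0.15, -0.15 and -0.04), and 0 of 3 shPLEKHO1 arrays were closest to their own number.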

Other observations

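Beta-catenin also holds cadherins at cell junctions, and CTNNB1 itself fell. Of 6 measured junction partners, read from their brightest probe sets, 0 passed in limma, where 33.2% of all genes did. Of these 6, 0 had an unadjusted p under 0.05, and 2 were at or under the background probe set of 16 G or C bases. A count over 6 genes is too small to set them apart from all genes. CDH2, N-cadherin, averaged 2284 with shPLEKHO1 and 2190.4 with shNC, a log2 difference of 0.05 on its brighter probe set, while the other of its 2 probe sets rose. CTNNA1, the alpha-catenin that links cadherin complexes to actin, averaged 2518 with shPLEKHO1 and 2588 with shNC (-0.03), and none of its 7 probe sets changed. CDH1, E-cadherin, was at background, at 11.1 with shPLEKHO1 and 11.5 with shNC. JUP, or plakoglobin, the closest relative of beta-catenin, averaged 39.9 with shPLEKHO1 and 45.4 with shNC (-0.19, limma adjusted p = 0.270). CDH1, CTNNA1 and JUP were named here after their values were seen.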
